A study of Mus musculus with 6 samples.

Results

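Matrix proteases and their inhibitors were represented by 10 genes of 36172 in the expression table: the secreted matrix metalloproteinases Mmp7, Mmp10 and Mmp13, the membrane-type matrix metalloproteinases Mmp14 and Mmp15, the tissue inhibitors of metalloproteinases Timp1, Timp2 and Timp3, and urokinase (Plau) with its receptor (Plaur). They were taken as a list of gene symbols by their known roles, with earlier results of these data known, and each symbol matched 1 row. Matrix metalloproteinases are zinc-dependent enzymes that are made as inactive precursors and cut collagens, other matrix proteins and cell surface proteins, and Timps bind their active site. Urokinase converts plasminogen to plasmin, which cuts fibrin and can activate some metalloproteinase precursors, and its receptor holds it at the cell surface. In the mouse small intestine Mmp7 is a product of Paneth cells, the secretory cells of the crypt base, where it processes the precursors of antimicrobial defensins, and it is also known from Apc-mutant intestinal tumors.

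The organoids were grown from small intestinal tumors of C57BL/6 mice aged 15-20 weeks, and all of them carried the Apc Δ716 truncation together with loss of the wild-type Apc allele. Apc Δ716 Trp53 +/+ organoids had wild-type Trp53. In Apc Δ716 Trp53 flox/flox organoids both alleles held the R270H mutation behind a stop cassette that had not been removed, which makes them functionally null, and in Apc Δ716 Trp53 R270H/R270H organoids the cassette had been removed in tamoxifen-treated mice by villin-CreER, a recombinase driven in the intestinal epithelium. Poly(A) RNA of 2 independent organoid preparations from different mice was sequenced for each genotype, giving 6 libraries, and the genotypes are written below as +/+, flox/flox and R270H/R270H. The spread between 2 such libraries is the replicate error behind every test. Stroma of the tumor is not a designed component of these cultures, so the values describe epithelial organoids and not whole tumors.

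Expression is given in rpkm, reads per kilobase of transcript scaled to the mapped reads of the library, a unit that allows levels to be compared between genes. The lowest value in the table is 1 rpkm, which 23760 genes had in all 6 libraries, so a level listed at 1 rpkm may be anything up to that value. Trp53 was at 75.9 and 74.3 rpkm in the +/+ libraries, at 1.73 and 2.48 rpkm in the flox/flox libraries and at 72.8 and 82.7 rpkm in the R270H/R270H libraries, as the labels of these genotypes describe. Depth could be estimated for 4 libraries, at 44.2 to 47.3 M mapped reads. The flox/flox libraries differed from each other by more than 2-fold in 12.6% of the 10042 genes that reached 4 rpkm in any library, against 0.0996% in +/+ and 0.259% in R270H/R270H. The 6 epithelial markers (Epcam, Cdh1, Krt8, Krt18, Krt19 and Vil1) were at 98.5 rpkm or more in every library.

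Differences were tested with limma on log2(rpkm + 1) over those 10042 genes in all 6 libraries, with two-sided p-values adjusted by the Benjamini-Hochberg method, and a gene is said to be higher or lower where the adjusted p-value was under 0.05. An exact test of 2 libraries against 2 cannot give a p-value below 0.333, so the tests lean on the spread pooled over genes and genotypes. Mmp7, Mmp14, Mmp15, Timp2, Plau and Plaur passed the expression filter, while Mmp10, Mmp13, Timp1 and Timp3 stayed under 4 rpkm in every library. Plau passed through 1 flox/flox library alone. The 3 comparisons share libraries with each other and are not independent.

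Promoter sequences were read from RefSeq (GRCm38.p6) for the 3 secreted metalloproteinases, which lie in the same gene cluster at very different levels, and for Plaur and Mmp14, which lay at the bottom and at the top in R270H/R270H. The windows are the 130 bases before the transcript start on the + strand, at chr9:7691960-7692089 for Mmp7, chr9:7502212-7502341 for Mmp10, chr9:7272384-7272513 for Mmp13, chr7:24462353-24462482 for Plaur and chr14:54431468-54431597 for Mmp14. Capitals mark matches to the AP-1 element TGANTCA, the TATA box TATAAA and the GC box GGGCGG, where N is any base.
Mmp7: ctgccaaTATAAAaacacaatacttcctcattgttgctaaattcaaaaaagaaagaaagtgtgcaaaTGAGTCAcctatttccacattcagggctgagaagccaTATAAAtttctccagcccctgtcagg
Mmp10: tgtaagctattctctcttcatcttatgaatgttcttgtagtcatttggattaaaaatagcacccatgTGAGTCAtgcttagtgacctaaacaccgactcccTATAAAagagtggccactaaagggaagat
Mmp13: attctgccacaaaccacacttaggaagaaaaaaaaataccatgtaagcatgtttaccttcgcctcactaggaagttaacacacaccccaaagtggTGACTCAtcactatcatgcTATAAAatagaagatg
Plaur: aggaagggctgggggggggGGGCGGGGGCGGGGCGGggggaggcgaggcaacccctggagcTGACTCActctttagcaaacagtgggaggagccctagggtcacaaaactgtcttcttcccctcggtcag
Mmp14: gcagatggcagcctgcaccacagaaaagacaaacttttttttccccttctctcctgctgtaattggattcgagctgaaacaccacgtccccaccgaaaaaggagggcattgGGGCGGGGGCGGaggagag

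Both strands of the 250 bases before the start were searched in all 32851 windows of the table, which cover 9 members (all but Plau). Mmp7 had 2 windows, and the one at the outer start of the gene was used for the counts of members. An AP-1 element, the letters bound by Fos and Jun family dimers, was found in 4 members and in 6.75% of all windows. It began 63 bases before the start in Mmp7, 63 in Mmp10, 35 in Mmp13 and 69 in Plaur. A TATA box was found in 3 members, the secreted metalloproteinases, and in 12.4% of all windows. Mmp7 had it at 26 and 123 bases before the start, Mmp10 at 29 and Mmp13 at 16. The GC box was found in 6 members (Mmp14, Mmp15, Timp1, Timp2, Timp3 and Plaur) and in 32.7% of all windows, with the last of the 3 matches in Plaur overlapping its neighbor by its edge. CTTTGAT, the letters bound by Tcf and Lef factors, was found in 0 of the 9 members and in 3.21% of all windows. Mmp7 and Mmp10 therefore had the AP-1 letters at the same distance from the start, and Plaur combined them with GC boxes in place of a TATA box. G and C made up 38% of the Mmp7 window, 37.2% for Mmp10 and 40.4% for Mmp13, against 68% for Timp2, 65.6% for Timp3, 63.6% for Mmp15 and a median of 52.4% over all windows. These matches describe the letters and do not show that a factor binds there.

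Mmp7 (chromosome 9, 7692090 to 7699585, GRCm38) had the highest level of the 10 genes in every library. It was at 624 and 485 rpkm in +/+ organoids, at 351 and 397 rpkm in flox/flox organoids and at 138 and 143 rpkm in R270H/R270H organoids. The genotypes did not overlap, and they followed the order +/+, flox/flox, R270H/R270H from high to low. The genotype means were 555±98.5, 374±32.5 and 141±3.86 rpkm (mean±s.d., n=2 each), which makes R270H/R270H 3.95-fold lower than +/+ and 2.66-fold lower than flox/flox. On the log2(rpkm + 1) scale the change against +/+ was -1.96 (s.e. 0.16, adjusted p=0.00441 by limma), and Mmp7 was lower in both libraries. Against flox/flox the log2 change was -1.40 (s.e. 0.16, adjusted p=0.00769 by limma). The intermediate position of flox/flox was not called, with a log2 change of -0.56 against +/+ (95% interval -0.96 to -0.15, adjusted p=0.0821 by limma). An antisense gene, AV064505, shares 123 bases of exon with Mmp7 and was not analysed here, and whether reads were counted by strand is not given in the sources used here.

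Leaving out 1 library at a time kept the direction of Mmp7 but not every call. The change against +/+ was -1.78 without +/+ replicate 1 (adjusted p=0.0696 by limma), -2.14 without +/+ replicate 2 (adjusted p=0.0735 by limma), -1.93 without R270H/R270H replicate 1 (adjusted p=0.0816 by limma) and -1.99 without R270H/R270H replicate 2 (adjusted p=0.0710 by limma). Over all genes those 4 fits called 0, 0, 0 and 111 genes, with 1442 to 1915 at an unadjusted p under 0.05. The call of Mmp7 against flox/flox was lost without R270H/R270H replicate 1 or replicate 2. Over the fits that left out 1 library its log2 change there ranged from -1.49 to -1.315. With all libraries and weights for each genotype this call was lost too (adjusted p=0.0878 by limma), in a fit that called 5.32% of all genes.

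Paneth cell markers are set beside Mmp7 because Paneth cells are its known source. Of the 8 markers, Lyz1, Defa17, Defa24, Ang4 and Mptx1 were lower in R270H/R270H than in +/+ organoids, Defa22 and Itln1 were higher, and Mptx2 was not called (log2 change -5.36, adjusted p=0.0543 by limma). Lyz1, the Paneth cell lysozyme, was at 408 and 315 rpkm in +/+, 135 and 99.8 rpkm in flox/flox and 125 and 129 rpkm in R270H/R270H. For Lyz1, flox/flox thus lay near R270H/R270H, whereas for Mmp7 it lay nearer to +/+. Lyz1, Defa17, Defa22, Defa24 and Ang4 were lower in flox/flox than in +/+, and Itln1, Mptx1 and Mptx2 were not called.

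Between R270H/R270H and flox/flox organoids, where Mmp7 was lower, Defa17, Defa22 and Itln1 were higher and the other 5 Paneth markers were not called. Lyz1 had a log2 change of 0.13 in that comparison (95% interval -0.38 to 0.64, adjusted p=0.653 by limma). The summed level of the 8 markers was 1045 to 1254 rpkm in +/+, 253 to 275 rpkm in flox/flox and 432 to 480.1 rpkm in R270H/R270H. In this sum the order of flox/flox and R270H/R270H was opposite to that of Mmp7, but the markers differed. From flox/flox to R270H/R270H the mean of Itln1 went from 46.5 to 146 rpkm and that of Defa22 from 3.22 to 45.7 rpkm. The means of Mptx1 (23.4, 4.51 and 1 rpkm in +/+, flox/flox and R270H/R270H) and Mptx2 (81.0, 16.8 and 1 rpkm) followed the order of Mmp7. All the other markers had a higher mean in R270H/R270H than in flox/flox. Mptx1 and Mptx2 were listed at 1 rpkm in both R270H/R270H libraries and in flox/flox replicate 1. Defensins are a family of near-identical genes whose reads can be split among copies, so their single values are uncertain. The part of Paneth cells in the Mmp7 result was not tested, and in these bulk samples fewer cells of a type and less RNA per cell cannot be told apart.

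**Figure D1:**
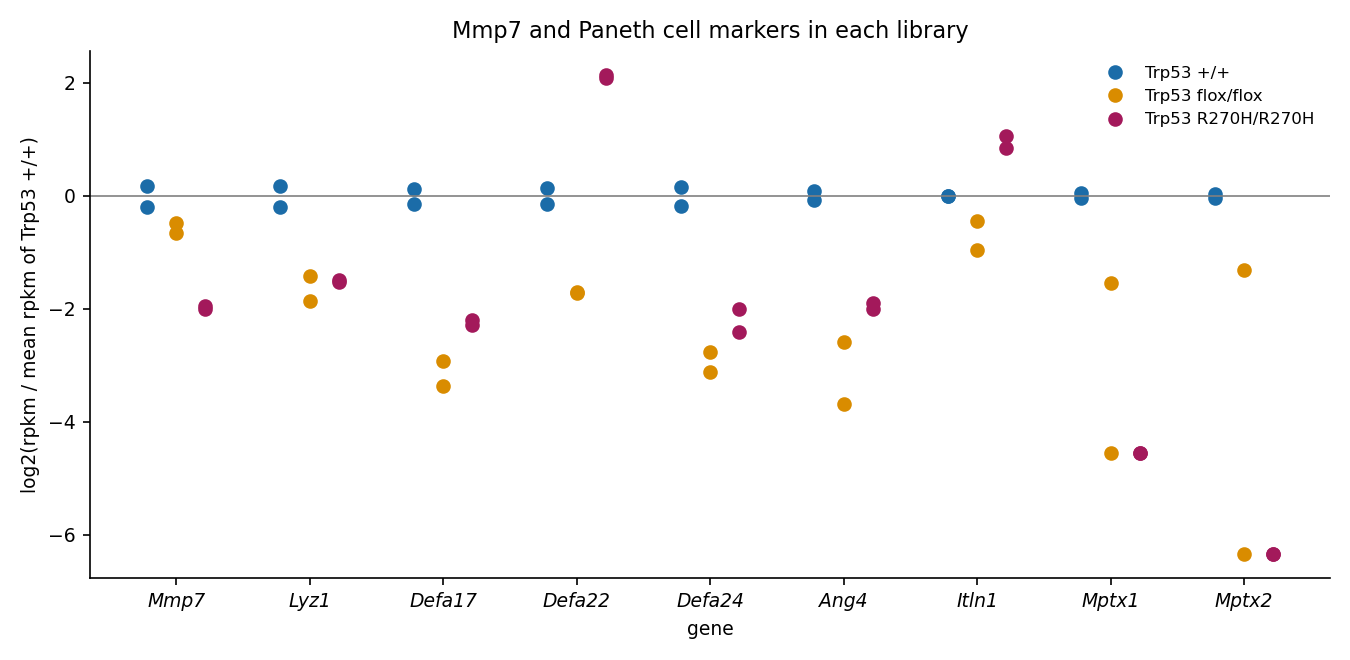
Log2 ratio of rpkm to the mean of the +/+ libraries (vertical axis) for Mmp7 and the 8 Paneth cell markers (horizontal axis), 1 point per library, colored by genotype. For Mmp7 the flox/flox points lie between the other genotypes, while for Defa17, Defa22, Defa24, Ang4 and Itln1 they are the lowest.

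The plot of Mmp7 with the Paneth markers shows the order of the genotypes gene by gene, and it also shows how far apart the flox/flox libraries stood for Mptx1 and Mptx2.

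The other secreted metalloproteinases were barely detected. Mmp10, stromelysin-2 (chromosome 9, 7502352 to 7510240), was at 1.45 rpkm in flox/flox replicate 2 and at the lowest value of 1 rpkm in the other 5 libraries. Mmp13, an interstitial collagenase (chromosome 9, 7272514 to 7283331), was at 1.29 rpkm in the same library and at 1 rpkm elsewhere. With exon lengths of 1722 and 2673 bases, 1 rpkm corresponds to about 76.1 to 81.5 reads for Mmp10 and 118 to 126 reads for Mmp13 in the libraries with an estimated depth. Levels below that are unknown, so no fold change between genotypes is given.

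Mmp7, Mmp10 and Mmp13 belong to a cluster of 10 metalloproteinase genes that spans 427 kb of chromosome 9. Of the 10 genes, 5 were at 1 rpkm in all 6 libraries (Mmp1a, Mmp1b, Mmp3, Mmp8 and Mmp27). Mmp7 was the 1 gene of the cluster that passed the filter. Mmp20, a tooth enamel protease, was at 1.32 and 1.23 rpkm in +/+, at 1.23 and 1.32 rpkm in flox/flox and at 1 and 1.04 rpkm in R270H/R270H. Mmp12, macrophage elastase, was at 1.67 and 1.75 rpkm in +/+, at 1 and 1.06 rpkm in flox/flox and at 1.84 and 1.77 rpkm in R270H/R270H. At Mmp20 the R270H/R270H libraries were thus the lowest, as at Mmp7, and at Mmp12 the flox/flox libraries were, all of them close to the lowest value of the table. Genes of chromosome 9 as a whole shifted little, with medians between -0.06 and 0.11 on the log2 scale in the single libraries relative to +/+.

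**Figure D2:**
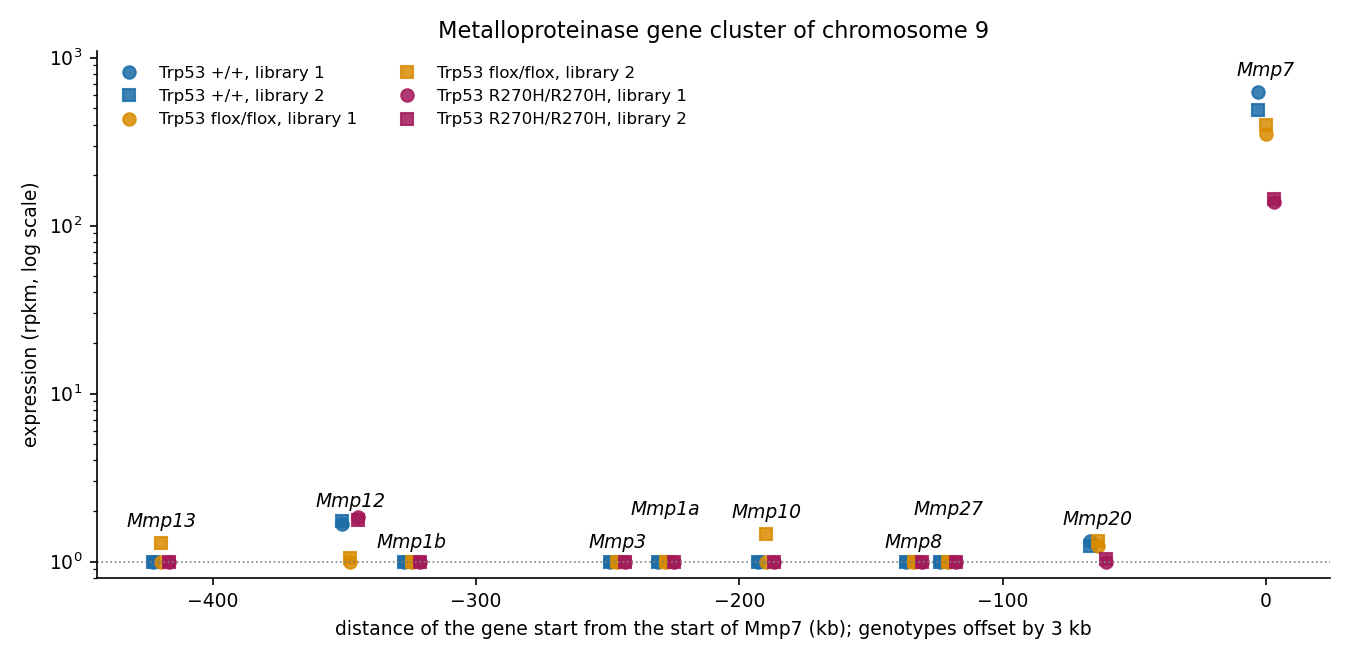
Expression in rpkm on a log axis (vertical) of the 10 metalloproteinase genes of the chromosome 9 cluster by the distance of their start from that of Mmp7 in kb (horizontal), 1 point per library, with the lowest deposited value of 1 rpkm as a dotted line. Mmp7 lies at 138 rpkm or more in each library and the other 9 genes at 1.84 rpkm or less.

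In the map of the cluster the distance between Mmp7 and its neighbors is far larger than that between the genotypes at any gene.

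Mmp14, the membrane-anchored collagenase MT1-MMP (chromosome 14, 54431612 to 54445364), had its highest level where Mmp7 had its lowest. It was at 34.1 and 33.0 rpkm in +/+, at 26.5 and 45.5 rpkm in flox/flox and at 65.1 and 65.5 rpkm in R270H/R270H organoids. Both R270H/R270H libraries lay above all the others, while the flox/flox libraries lay on either side of +/+. The mean of R270H/R270H was 1.94-fold that of +/+ and 1.82-fold that of flox/flox. Neither difference passed the threshold, with log2 changes of 0.94 (95% interval 0.30 to 1.57, adjusted p=0.0706 by limma) and 0.89 (95% interval 0.26 to 1.53, adjusted p=0.0559 by limma).

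The adjusted p of Mmp14 depended on the flox/flox libraries, although they are not part of the comparison of R270H/R270H with +/+, and on each of the compared libraries. A fit of those 2 genotypes alone gave the same log2 change with adjusted p=8.69e-05 by limma, and weights for each genotype gave adjusted p=4.54e-05. Without flox/flox replicate 1 the adjusted p was 0.000239 by limma and without replicate 2 it was 0.000226. Each of those fits also called 57.8% to 59.6% of all genes. Without +/+ replicate 1 or 2 the adjusted p was 0.324 or 0.361 by limma, without R270H/R270H replicate 1 or 2 it was 0.340 or 0.288, and without a filter it was 0.213. Without flox/flox replicate 1 the log2 change against flox/flox was 0.51 (adjusted p=0.00255 by limma) and without replicate 2 it was 1.27 (adjusted p=0.00015).

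Mmp15, another membrane-type enzyme (MT2-MMP, chromosome 8, 95352268 to 95375080), had its lowest values where Mmp14 had its highest. It was at 22.5 and 20.3 rpkm in +/+, at 12.5 and 24.8 rpkm in flox/flox and at 10.9 and 12.1 rpkm in R270H/R270H organoids. Both R270H/R270H libraries were below the other 4, the nearest of which was flox/flox replicate 1. Neither comparison of R270H/R270H was called, with log2 changes of -0.84 against +/+ (95% interval -1.63 to -0.05, adjusted p=0.138 by limma) and -0.58 against flox/flox (adjusted p=0.209 by limma). In the fit of R270H/R270H and +/+ alone the adjusted p was 0.000524. The ratio of the mean level of Mmp14 to that of Mmp15 can be read from these values: the 2 membrane-type enzymes were within 1.57-fold of each other in +/+ and 5.68-fold apart in R270H/R270H organoids.

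**Figure D3:**
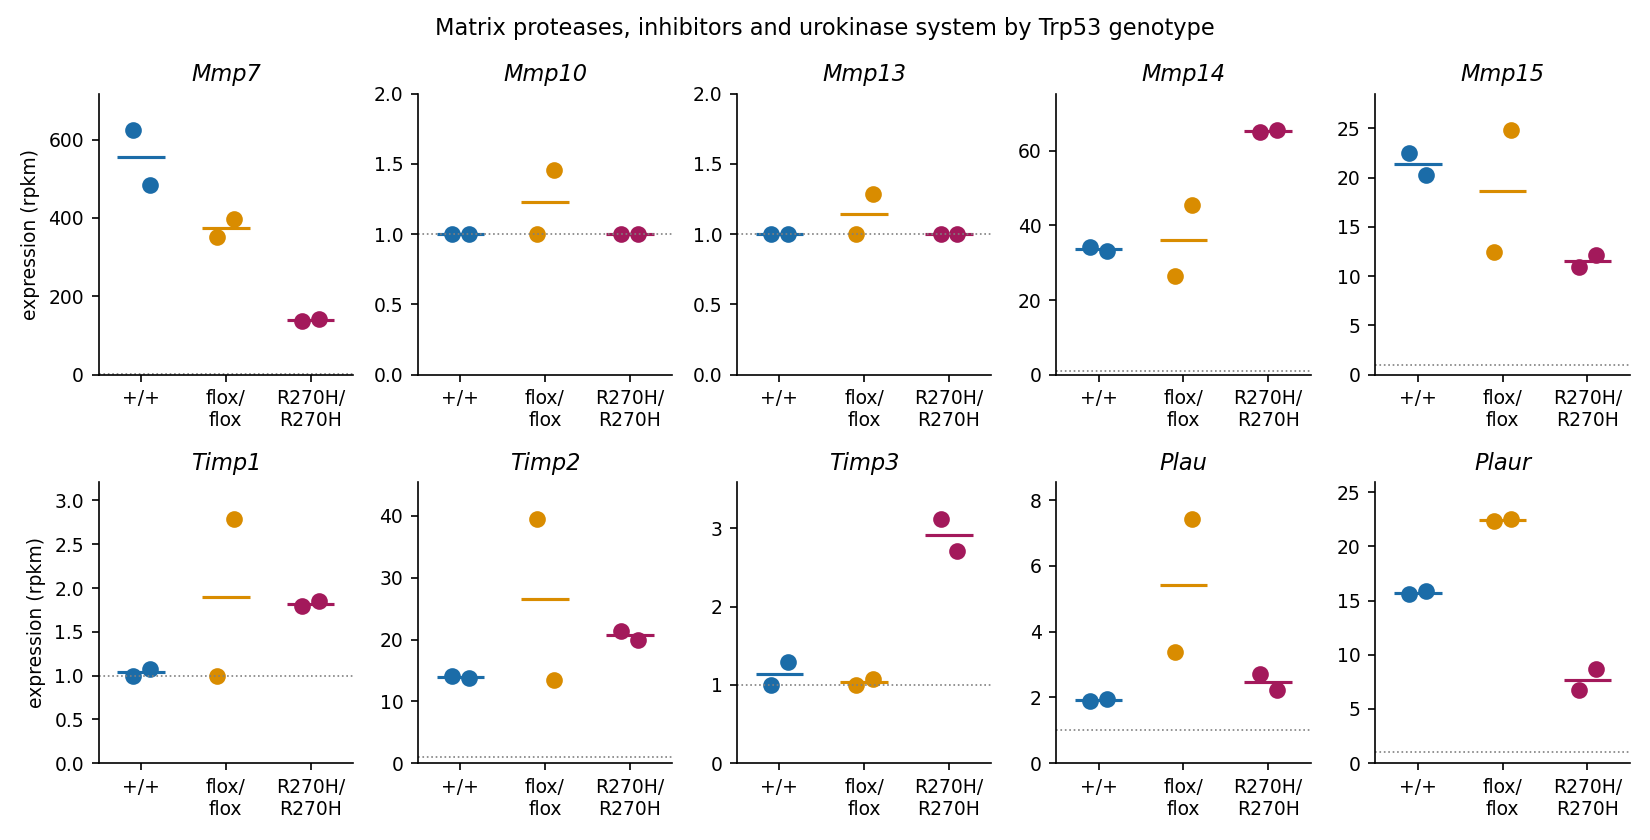
Expression in rpkm (vertical axis of each panel, starting at 0) of the 10 genes in the 2 libraries of each Trp53 genotype (horizontal axis); points are libraries, bars are means and the dotted line is the lowest deposited value of 1 rpkm. The R270H/R270H points are the lowest for Mmp7, Mmp15 and Plaur and the highest for Mmp14 and Timp3.

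Timp2 (chromosome 11, 118301069 to 118355740, minus strand), a broad metalloproteinase inhibitor that also takes part with Mmp14 in activating the Mmp2 precursor, was the most abundant of the inhibitors. It was at 14.0 and 13.7 rpkm in +/+, at 39.6 and 13.4 rpkm in flox/flox and at 21.4 and 19.9 rpkm in R270H/R270H organoids. R270H/R270H lay above +/+ in both libraries, and the highest and the lowest value of all 6 were the 2 flox/flox libraries. The log2 change of R270H/R270H against +/+ was 0.54 (95% interval -0.65 to 1.74, adjusted p=0.483 by limma), and in the fit of these 2 genotypes alone adjusted p was 0.00101. Mmp2 itself was at 1 rpkm in all 6 libraries.

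Timp1 (chromosome X, 20870166 to 20874735), a secreted inhibitor, was at 1 and 1.07 rpkm in +/+, at 1 and 2.79 rpkm in flox/flox and at 1.79 and 1.85 rpkm in R270H/R270H organoids. The R270H/R270H libraries were above +/+ and between the flox/flox libraries. Timp3 (chromosome 10, 86300372 to 86349506), the inhibitor that binds to the extracellular matrix, was at 1 and 1.29 rpkm in +/+, at 1 and 1.07 rpkm in flox/flox and at 3.12 and 2.71 rpkm in R270H/R270H organoids.

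Timp3 was thus highest in both R270H/R270H libraries, with no overlap. It was tested in a fit of the 12412 genes with more than 1 rpkm in at least 1 library, where it was higher than in +/+ by 0.87 on the log2 scale (s.e. 0.10, adjusted p=0.00874 by limma) and than in flox/flox by 0.94 (s.e. 0.10, adjusted p=0.00631 by limma). That fit called 8.37% of its genes higher in the former comparison and 15.4% in the latter. Because values under 1 rpkm are unknown, the true difference may be larger. With all 36172 genes in the fit the adjusted p was 0.0691 against +/+ and 0.0497 against flox/flox by limma. Timp1 was not called in the fit of 12412 genes (log2 change 0.47 against +/+, adjusted p=0.350 by limma). Syn3 overlaps Timp3 on the opposite strand with 1733 bases of shared exon and was at 1 rpkm in all 6 libraries.

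Plaur, the urokinase receptor (chromosome 7, 24462484 to 24475968), separated all 3 genotypes. It was at 15.6 and 15.9 rpkm in +/+, at 22.3 and 22.6 rpkm in flox/flox and at 6.74 and 8.69 rpkm in R270H/R270H organoids. The genotypes did not overlap, and in contrast to Mmp7 the highest level was that of flox/flox, whose libraries were closer to each other than for any other member that passed the filter. R270H/R270H was 2.04-fold lower than +/+ (log2 change -0.95, s.e. 0.14, adjusted p=0.0178 by limma) and 2.91-fold lower than flox/flox (log2 change -1.44, s.e. 0.14, adjusted p=0.00514 by limma). The higher level in flox/flox than in +/+ was not called (log2 change 0.49, 95% interval 0.14 to 0.83, adjusted p=0.0782 by limma). Over all genes tested, both R270H/R270H libraries lay above or below the other 4 in 45.2%, and both flox/flox libraries in 42.1%. The share of genes that separated all 3 genotypes was not counted.

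The direction of Plaur also held in each fit without 1 library, with the call against +/+ lost in 4 of them. Its adjusted p by limma was 0.175 without +/+ replicate 1, 0.206 without +/+ replicate 2, 0.147 without R270H/R270H replicate 1 and 0.0717 without R270H/R270H replicate 2. Against flox/flox the call was lost without R270H/R270H replicate 1. With all 36172 genes in the fit the call against +/+ was lost as well (adjusted p=0.0777 by limma), and that against flox/flox was kept.

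Plau, the urokinase gene (chromosome 14, 20836660 to 20843385), was lower than its receptor in every library. It was at 1.88 and 1.94 rpkm in +/+, at 3.39 and 7.43 rpkm in flox/flox and at 2.70 and 2.24 rpkm in R270H/R270H organoids. Both flox/flox libraries were the highest and both +/+ libraries the lowest. The log2 changes were 1.06 for flox/flox against +/+ (95% interval 0.25 to 1.88, adjusted p=0.0908 by limma) and -0.81 for R270H/R270H against flox/flox (95% interval -1.63 to 0.0043, adjusted p=0.119 by limma), and neither was called. Plau and Plaur therefore both had their highest level in flox/flox, and in R270H/R270H Plaur was under its +/+ level while Plau was not.

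Counted together, 2 of the 6 members that passed the filter were lower in R270H/R270H than in +/+ (Mmp7 and Plaur) and 0 were higher, where over all genes tested 6.36% were lower and 5.86% higher. Against flox/flox the same 2 genes were lower and 0 were higher, where 11% of all genes were lower and 13.6% higher. Between flox/flox and +/+ limma called 0 of the 6 members, with 11.3% of all genes called. Mmp7 and Plaur had an unadjusted p under 0.05 by limma, as had 34.7% of all genes. Plau had one too, but it was tested because it was high in 1 flox/flox library, so this is no more than a description. The median log2 change of the 6 members was -0.29, -0.70 and 0.27 in these 3 comparisons, against 0.03, 0.03 and -0.02 over all genes. With 6 genes these medians describe the list, whose log2 changes had both signs. The medians that involve flox/flox include Plau, whose change against +/+ (1.06) was the largest of the 6 there.

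The number of members called depended on which libraries set the spread. In the fit of R270H/R270H and +/+ alone, 5 members were called, Mmp14 and Timp2 higher and Mmp7, Mmp15 and Plaur lower, and this fit called 59.1% of all its genes. With weights for each genotype it was 5 members and 59.6% of all genes. Without flox/flox replicate 1 or without replicate 2 the count was 5 as well, with 57.8% of all genes called in each, and it was 0 without +/+ replicate 1 or 2 or R270H/R270H replicate 1 or 2. Between R270H/R270H and flox/flox it was 6 without flox/flox replicate 1 (54% of all genes), 4 without flox/flox replicate 2 (72.8%), 0 without R270H/R270H replicate 1 and 1 without R270H/R270H replicate 2. Between flox/flox and +/+ it was 3 without flox/flox replicate 1 (41.9% of all genes) and 5 without flox/flox replicate 2 (69.3%), a library without which Plau stayed under the filter.

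**Figure D4:**
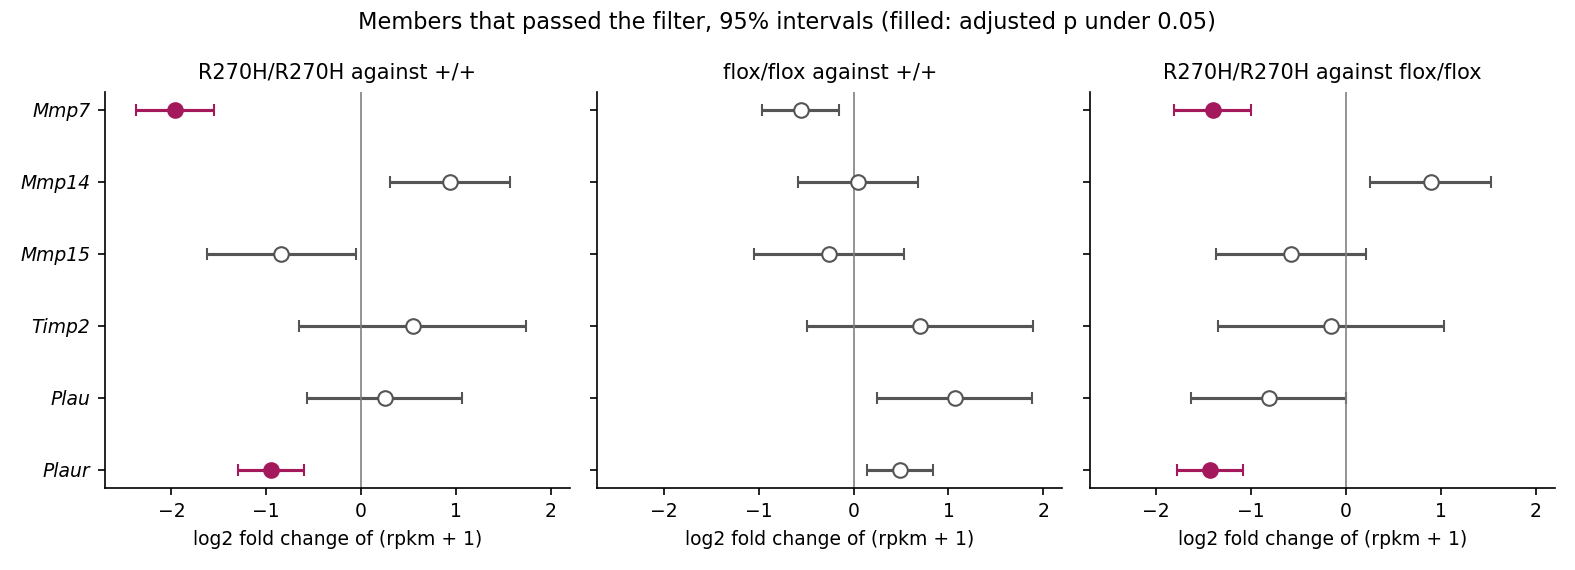
Log2 fold change of (rpkm + 1) (horizontal axis) of the 6 members that passed the filter (vertical axis) in the 3 comparisons of Trp53 genotypes, with 95% intervals from limma; filled points had an adjusted p under 0.05. Mmp7 and Plaur are filled in both comparisons of R270H/R270H, and no point is filled for flox/flox against +/+.

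The plot of fold changes shows widths that differ by gene: the interval of Timp2 spans more than 2 units of log2, and those of Mmp7 and Plaur are the narrowest.

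By position alone, both R270H/R270H libraries lay below the other 4 in 3 of the 6 members (Mmp7, Mmp15 and Plaur) and above them in 1 (Mmp14), where over all genes tested this held for 18.7% and 26.5%. Plau passed the filter through a flox/flox library, so its place is left out of the next counts. Over the other 5 members, both flox/flox libraries lay above the other 4 in 1 (Plaur), against 19.9% of all genes, and below them in 0, against 22.2%. Both +/+ libraries lay above the others in 1 of these 5 (Mmp7), against 17.1% of all genes, and below them in 0, against 15.6%.

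The flox/flox libraries differed more from each other for these genes than those of the other genotypes. Their median absolute log2 ratio over the 6 members was 0.88, against 0.05 in +/+ and 0.13 in R270H/R270H. Timp2 was 2.94-fold higher in replicate 1, and Plau 2.19-fold, Mmp15 1.99-fold and Mmp14 1.72-fold higher in replicate 2. Mmp7 and Plaur were the exceptions, with ratios of 1.13 and 1.01.

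**Figure D5:**
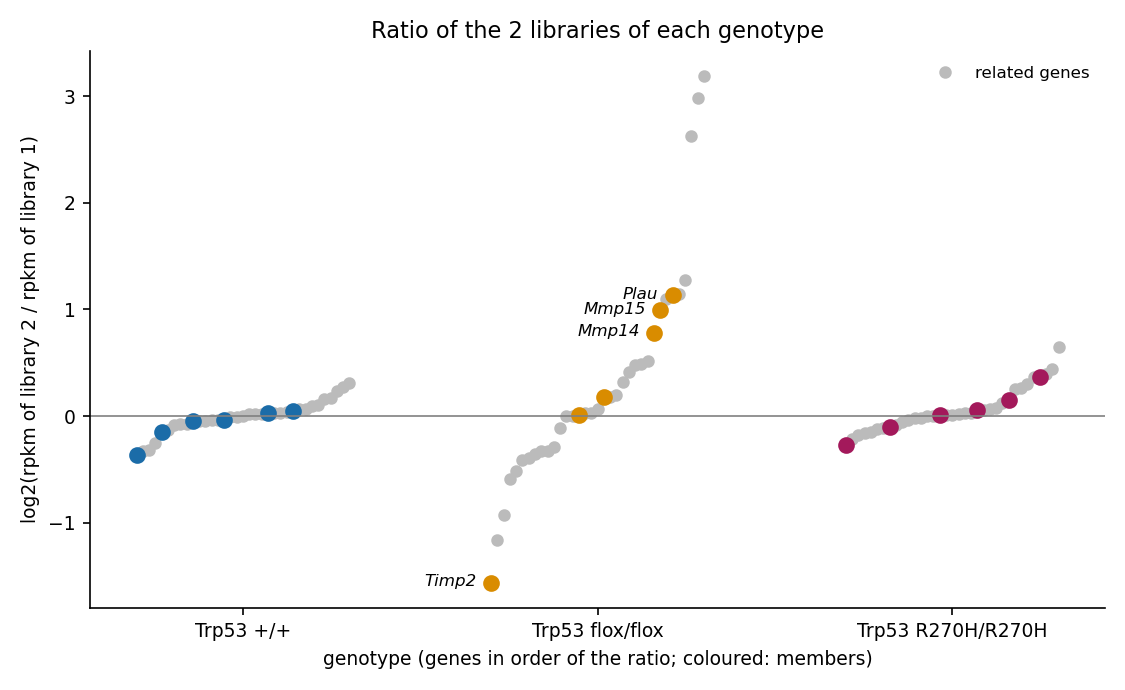
Log2 ratio of rpkm in library 2 to library 1 of the same genotype (vertical axis) for the 6 members (colored) and 29 related protease and inhibitor genes (grey) that passed the filter, in order of the ratio within each genotype (horizontal axis). The points of flox/flox spread from Timp2 at the bottom to related genes far above 0, and those of the other genotypes stay near 0.

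Among the related genes, Adam8, a membrane-bound metalloprotease, was at 1.87 and 14.8 rpkm in the flox/flox libraries, and its +/+ libraries, at 5.93 and 6.61 rpkm, lay between these values. Hpn, the membrane serine protease hepsin, was at 1 and 6.19 rpkm in flox/flox and at 5.06 and 4.07 rpkm in +/+.

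The library of flox/flox replicate 2 also stood apart in some markers of other cell types. Of 10 fibroblast markers, 6 were above 1 rpkm in it, against 1 or 2 in every other library. Besides Vim they were Acta2 at 11.5 rpkm, Col1a1 at 2.44 rpkm, Pdgfrb at 1.36 rpkm, Pdgfra at 1.23 rpkm and Dcn at 1.05 rpkm. Col1a2, Col3a1, Lum and Thy1 were at 1 rpkm in all 6 libraries. The summed fibroblast level was 59.0 to 78.0 rpkm in +/+, 41.4 to 80.6 rpkm in flox/flox and 294 to 316 rpkm in R270H/R270H, most of it Vim, which was at 306 and 284 rpkm in R270H/R270H and at 71.6 rpkm or less in the others. Vim was called higher against flox/flox (adjusted p=0.0261 by limma) and not against +/+ (adjusted p=0.0622 by limma). In both R270H/R270H libraries, where Mmp14 and Timp3 were highest, Acta2 was at 1.53 and 1.59 rpkm, against 1 rpkm in +/+, and the other 8 markers of the list were at 1 rpkm. The part of other cells in the levels of Mmp14 and Timp3 was not tested.

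Of the keratins among the 6 epithelial markers, Krt19 was lower in both comparisons where Plaur was lower, and Krt8 and Krt18 only against flox/flox. Krt19 was at 575 and 586 rpkm in +/+, at 946 and 1142 rpkm in flox/flox and at 301 and 379 rpkm in R270H/R270H, the same order of genotypes as for Plaur. It was lower in R270H/R270H than in +/+ (log2 change -0.78, adjusted p=0.0469 by limma), where Epcam, Cdh1, Krt8, Krt18 and Vil1 were not called. Against flox/flox, Krt8 (-0.93), Krt18 (-0.80) and Krt19 (-1.62) were lower on the log2 scale, with adjusted p between 0.00657 and 0.0192 by limma. Krt8 and Krt19 were higher in flox/flox than in +/+ (log2 changes 0.70 and 0.84, adjusted p=0.0329 and 0.0411 by limma). The summed level of the 6 markers was 2645 to 2681 rpkm in +/+, 3966 to 4164 rpkm in flox/flox and 2181 to 2319 rpkm in R270H/R270H. Their part in the results for Mmp7 and Plaur was not tested.

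Of 8 immune markers, 6 were at 1 rpkm in all 6 libraries, among them Ptprc, and Lyz2 was at 5.67 rpkm in flox/flox replicate 2 and at 1 rpkm elsewhere. The remaining marker, Cd68, was at 10.2 and 9.87 rpkm in +/+, at 2.06 and 11.1 rpkm in flox/flox and at 2.22 and 2.41 rpkm in R270H/R270H. The summed immune level was 16.9 to 17.2 rpkm in +/+, 9.06 to 22.8 rpkm in flox/flox and 9.22 to 9.41 rpkm in R270H/R270H. Each marker listed at 1 rpkm adds 1 rpkm to a summed level. Of 4 endothelial markers, Pecam1 and Kdr were at 1 rpkm in all 6 libraries, and Tek was at 21.4 rpkm in flox/flox replicate 2, at 3.97±0.042 rpkm in +/+ and lower in the others. Cdh5 was at 8.88 and 9.35 rpkm in +/+, at 1 and 3.30 rpkm in flox/flox and at 1.04 and 1 rpkm in R270H/R270H. It was lower than in +/+ in both flox/flox (adjusted p=0.0411 by limma) and R270H/R270H (adjusted p=0.0224 by limma). The summed endothelial level was 14.9 to 15.3 rpkm in +/+, 4 to 26.7 rpkm in flox/flox and 4.13 to 4.20 rpkm in R270H/R270H. The part of other cells in the values of flox/flox replicate 2, including its Mmp10, Mmp13, Timp1 and Plau, was not tested.

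Genes that work with the 10 members were taken from 7 lists of 64 genes, of which 24 were at 1 rpkm in all 6 libraries and 29 passed the filter. Of 18 other metalloproteinases, 12 were at 1 rpkm throughout and only Mmp11, stromelysin-3, passed, at 2.91±0.351, 2.79±0.483 and 4.29±0.265 rpkm in +/+, flox/flox and R270H/R270H (mean±s.d., n=2 each), without a call. The other inhibitors Timp4, Reck and A2m were at 1 rpkm throughout. Of the 23 metalloproteinases looked for, 4 thus reached 4 rpkm in any library, Mmp7, Mmp14 and Mmp15 in all 3 genotypes and Mmp11 in R270H/R270H alone, as did 1 of the 6 inhibitors (Timp2).

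In R270H/R270H against +/+, 1 of the 29 related genes was higher and 2 were lower, where 5.86% of all genes tested were higher and 6.36% lower. Serpinf2, the plasmin inhibitor alpha2-antiplasmin, was listed at 1 rpkm in all 4 libraries of +/+ and flox/flox and at 5.42 and 7.10 rpkm in R270H/R270H. Its log2 change was 1.85 on the scale of log2(rpkm + 1) (adjusted p=0.0059 by limma). Serpinf2 passed the filter through the R270H/R270H libraries alone, so it was tested because it was high there, and its call and its place in the counts are no more than a description. Cst3, the cysteine protease inhibitor cystatin C, fell from 59.0 and 47.1 rpkm to 15.6 and 20.2 rpkm (log2 change -1.52, adjusted p=0.0111 by limma), and the lysosomal protease Ctsd from 493±5.65 to 299.9±21.6 rpkm (log2 change -0.72, adjusted p=0.0404 by limma). Over the 9 alternative settings that left out no single library, the call of Cst3 was lost in 1 and that of Ctsd in 2. Both calls were also lost in some of the fits that left out 1 library.

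In flox/flox against +/+, 2 related genes were higher and 2 were lower, where 4.38% of all genes were higher and 6.9% lower. Anxa2, which with S100a10 forms a plasminogen receptor, rose from 198±9.41 to 383±1.22 rpkm (log2 change 0.95, adjusted p=0.0135 by limma). The membrane serine protease Tmprss4 was at 47.1±0.71 and 85.6±21.2 rpkm (log2 change 0.83, adjusted p=0.0485 by limma). Its call was lost in 8 of the 9 alternative settings that left out no single library. Tmprss2 fell from 75.3±4.04 to 51.4±2.81 rpkm (log2 change -0.54, adjusted p=0.0344 by limma). Ctsd fell to 246±38.3 rpkm (log2 change -1.01, adjusted p=0.023 by limma). Over the same 9 settings, the calls of Tmprss2, Anxa2 and Ctsd in this comparison were lost in 5, 4 and 4. These calls and that of Tmprss4 were also lost in some of the fits that left out 1 library. In R270H/R270H, Anxa2 was at 206±11.9 rpkm.

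In R270H/R270H against flox/flox, 4 of the 29 related genes were higher and 6 were lower, where 13.6% of all genes were higher and 11% lower. Plat, the tissue-type plasminogen activator, was at 15.2 and 17.2 rpkm in +/+, 3.98 and 8.79 rpkm in flox/flox and 28.7 and 24.7 rpkm in R270H/R270H (log2 change 1.99, adjusted p=0.0173 by limma). Its order of genotypes was the reverse of that of Plaur, in all 6 libraries without overlap. The share of genes that separated all 3 genotypes was not counted. Both R270H/R270H libraries were the highest in 26.5% of all genes, and both flox/flox libraries the lowest in 22.2%. The changes of Plat against +/+ were not called, at 0.69 in R270H/R270H (adjusted p=0.221 by limma) and -1.30 in flox/flox (adjusted p=0.0637 by limma). Against flox/flox, the sheddase Adam10 (0.79) was also higher in R270H/R270H on the log2 scale. Cst3 (-1.81), Anxa2 (-0.89), Prss8 (-0.85), Ctsh (-0.80) and Spint2 (-0.64) were lower there, and adjusted p of these genes lay between 0.0054 and 0.0410 by limma. Serpinf2 (1.85) was higher too, but it was tested because it was high in R270H/R270H. Over the 9 alternative settings that left out no single library, the calls of Adam10 and Spint2 were lost in 4 each and those of Prss8 and Ctsh in 3 each. Those of Plat and Anxa2 were lost in 2 each and that of Cst3 in 1. Each of these calls was also lost in at least 1 of the fits that left out 1 library. Prss8 is a membrane-anchored serine protease, Ctsh a cathepsin, and Spint2 an inhibitor of membrane serine proteases.

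By list, the plasminogen system had 1 of 6 tested genes called (higher) in R270H/R270H against +/+, 1 (higher) in flox/flox against +/+, and 2 higher with 1 lower in R270H/R270H against flox/flox. The 1 gene higher in R270H/R270H than in +/+ was Serpinf2, which is also among the 2 higher than in flox/flox. It was tested because it was high in R270H/R270H, so these counts are no more than a description. In the same order of comparisons, 0, 2 and 3 of 7 membrane serine proteases and Kunitz inhibitors were called, and 0, 0 and 1 of 5 ADAM and ADAMTS proteases. Of the 7 cathepsins and cystatins, 2, 1 and 3 were called, all of them lower. Of the 3 proprotein convertases, Furin among them, limma called 0 in each comparison. Over all genes tested, 12.2%, 11.3% and 24.6% were called in these comparisons. Plg, the gene of plasminogen itself, was at 1 rpkm in all 6 libraries like Serpinb2, another urokinase inhibitor.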

How the data were processed

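Poly(A) RNA of 6 organoid preparations was sequenced (TruSeq stranded libraries, Illumina HiSeq). The authors mapped reads to mm10 and deposited RPKM values made with StrandNGS, whose version, annotation and filters are not given in the sources used here. No deposited value is below 1, which is not explained there. Members and related genes were matched by symbol or Entrez identifier, and placed on GRCm38 with GENCODE M21. The members and gene lists were chosen with earlier results of these data known.

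Genes that reached 4 rpkm in any library entered the tests, a minimum the study used for its own clustering, and log2(rpkm + 1) was fitted with limma 3.58.1 (R 4.3.3; lmFit, eBayes with a trend) over all 6 libraries without a block. The pseudocount of 1 understates changes of low genes. The fit was tested on simulated data. All 10 members were named, and up to 8 called related genes per comparison with the largest log2 change. Depth was estimated from steps of 1 read in the values of genes under 230 nt, and given where at least 8 values could be used, a limit set after the values had been seen. The alternatives were a pseudocount of 0.1, a filter of more than 1 rpkm or none, median-of-ratios scaling, no trend, weights for each genotype, fits of 2 genotypes, replicate blocks and leaving out each library. Python 3.11.15 with pandas 2.3.3 and matplotlib 3.10.9 was used for tables and figures.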

Additional observations from a re-analysis of the deposited data

How the results depend on the processing

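Directions were stable where the flox/flox libraries were not involved, and the number of calls was not. Over all genes, the reported fit called 12.2%, 11.3% and 24.6% in R270H/R270H against +/+, flox/flox against +/+ and R270H/R270H against flox/flox. In the same order, the fit with the filter of more than 1 rpkm called 15.4%, 11.8% and 24.6% of its genes. The fit without a filter called 427, 73 and 750 of 36172 genes. Members called between R270H/R270H and +/+ were 2 in the reported fit, 1 without a filter, 5 with weights for each genotype, 5 in the fit of these genotypes alone and 0 to 5 on leaving out 1 library. Between flox/flox and +/+ they ranged from 0 to 5 on leaving out 1 library. Between R270H/R270H and flox/flox they were 2, and 1 with weights and 0 to 6 on leaving out 1 library. Related genes called between R270H/R270H and +/+ were 3, and 6 with the filter of more than 1 rpkm, 21 with weights (59.6% of all genes called), 23 in the fit of 2 genotypes (59.1%) and 0 to 23 on leaving out 1 library. Between flox/flox and +/+ they were 4, and 7 with the wider filter, 0 without a filter, 0 with weights (1.49%), 0 in the fit of 2 genotypes (0.609%) and 0 to 20 on leaving out 1 library. Between R270H/R270H and flox/flox they were 10, and 3 without a filter, 2 with weights (5.32%), 2 in the fit of 2 genotypes (4.03%) and 1 to 21 on leaving out 1 library. Paneth markers called were 7, 5 and 3 in the comparisons R270H/R270H with +/+, flox/flox with +/+ and R270H/R270H with flox/flox, and 0 to 8, 0 to 8 and 1 to 6 on leaving out 1 library. The cause of these moves was not tested, and some of the settings also change the number of samples or of genes in the fit.

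Signs turned in 4 log2 changes, each on leaving out 1 flox/flox library: Mmp14 against +/+ to -0.33 (range -0.33 to 0.43), Mmp15 to 0.21 (range -0.73 to 0.21), Timp2 to -0.043 (range -0.043 to 1.45), and Timp2 in R270H/R270H against flox/flox to 0.59 (range -0.90 to 0.59). Plau could not be tested without flox/flox replicate 2. A lone library is assumed there to vary like those of the other genotypes.

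Same-numbered libraries came from different mice and share only a number, and their deviations correlated at 0.12 (+/+ and flox/flox), -0.29 (+/+ and R270H/R270H) and -0.20 (flox/flox and R270H/R270H). With a replicate block the members called were 2, 0 and 2 as before (Mmp7 at adjusted p=0.0182 and Plaur at adjusted p=0.0411 by limma against +/+), and the related genes called between flox/flox and +/+ and between R270H/R270H and flox/flox were 0 and 6. That fit called 550, 280 and 1156 of 10042 genes in R270H/R270H against +/+, flox/flox against +/+ and R270H/R270H against flox/flox. Depth does not limit Mmp7, but the lowest value of 1 rpkm hides any change of Mmp10 and Mmp13 below it.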
